A study of Saccharomyces cerevisiae with 12 samples.

Results

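The genes described here encode the proteins of the cytosolic ribosome of the yeast Saccharomyces cerevisiae. They were chosen by name: every gene whose standard name in the R64 annotation starts with RPL or RPS and a digit, and the stalk genes RPP0, RPP1A, RPP1B, RPP2A and RPP2B. The rule found 137 genes among 7445 entries of the early table and 7555 entries of the late table, and all 137 had an entry in both. Of these, 81 belong to the large subunit and 56 to the small subunit. A and B copies made up 59 pairs (118 genes), and 19 genes had no partner.

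The study sequenced RNA from cultures of strain BY4742 (MATalpha his3 leu2 lys2 ura3) that received the hydrogen sulfide donor NaHS or were left as controls. There were 4 groups of 3 libraries: early NaHS, early control, late NaHS and late control. Early means less than 72 h after inoculation and late means more than 72 h, and all groups share the strain and the SDC medium. Neither the NaHS dose nor an origin of a group's libraries in separate cultures is stated in the labels, so each p covers only the spread between these libraries, which may be technical.

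Early values are TPM and late values are FPKM, both scaled for gene length, and the tables were normalized separately, so no level is compared between stages. Depth is unknown. LEU2, LYS2, URA3 and the a-factor genes MFA1 and MFA2 were listed at 0 in all 12 libraries. HIS3, of which the strain's allele is known to keep a part, had values in all 12, as did the alpha genes MF(ALPHA)1 and STE3. The alpha gene MF(ALPHA)2 was listed at 0 in all 6 late libraries. It had values early, with a change of 1.26 (SE 0.32, limma adjusted p = 0.0241). What a listed 0 says of the genotype was not tested. Entries for CUP1, a metallothionein, took 5.91%, 6.83% and 3.13% of the early NaHS totals, against 0.50%, 0.41% and 0.36% of the control totals. Ribosomal RNA entries took 1.70%, 1.44% and 3.20% of the early NaHS totals, against 0.87%, 1.18% and 0.76% of the control totals. STE2, the receptor gene of a cells, had 7.72, 8.30 and 15.4 TPM in early NaHS libraries, against 4.19, 4.22 and 6.05 TPM in controls, and was listed at 0 late. The part of CUP1, ribosomal RNA or STE2 levels in the results was not tested.

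Ribosomal protein genes are among the most highly transcribed genes of growing yeast, and their output follows growth. The factors Rap1, Fhl1 and Ifh1 activate most of them, signals from TORC1 and protein kinase A reach them through these factors, and stress is known to repress them. Most of these proteins are encoded by A and B copies left from an ancient duplication of the genome. Copies can differ in promoter, intron and a few residues, and for several pairs the protein is known to hold back the splicing of one copy's transcript.

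The upstream windows of RPL22 and RPS9 are shown because the early A to B ratio changed most in these pairs. Each is the 250 bases that end 200 bases before the start codon, on the gene's strand, read from the R64 genome, in lower case. Capitals mark a match to the Rap1 motif ANCCNNACA, searched on both strands. RPL22A is at chrXII:262744-262993, plus strand. RPL22B is at chrVI:65133-65382, minus strand. RPS9A is at chrXVI:404500-404749, plus strand. RPS9B is at chrII:604058-604307, plus strand.
RPL22A: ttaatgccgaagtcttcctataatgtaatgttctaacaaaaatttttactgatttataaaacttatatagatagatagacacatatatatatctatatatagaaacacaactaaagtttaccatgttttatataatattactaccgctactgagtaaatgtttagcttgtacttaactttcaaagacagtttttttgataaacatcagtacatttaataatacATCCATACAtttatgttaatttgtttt
RPL22B: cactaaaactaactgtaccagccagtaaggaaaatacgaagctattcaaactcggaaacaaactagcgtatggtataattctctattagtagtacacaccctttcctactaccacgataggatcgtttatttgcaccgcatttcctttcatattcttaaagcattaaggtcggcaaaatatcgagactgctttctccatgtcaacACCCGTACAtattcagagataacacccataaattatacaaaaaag
RPS9A: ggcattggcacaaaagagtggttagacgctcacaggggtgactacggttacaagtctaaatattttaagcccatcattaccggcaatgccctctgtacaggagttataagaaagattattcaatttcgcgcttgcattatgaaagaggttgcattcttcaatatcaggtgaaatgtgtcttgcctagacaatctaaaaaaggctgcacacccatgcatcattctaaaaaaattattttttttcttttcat
RPS9B: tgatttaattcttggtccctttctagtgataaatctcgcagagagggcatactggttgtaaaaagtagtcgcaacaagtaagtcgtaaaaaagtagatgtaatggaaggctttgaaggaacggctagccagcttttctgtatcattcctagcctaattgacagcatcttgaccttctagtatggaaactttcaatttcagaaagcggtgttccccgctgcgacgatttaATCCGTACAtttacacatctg
The window held 1 match in RPL22A, starting 227 bases before the start codon, 1 in RPL22B (245 bases) and 1 in RPS9B (221 bases), and none in RPS9A. Among members, 82 of 137 windows (59.9%) held a match, against 625 of 6021 windows (10.4%) over all protein-coding genes. The share was 65.4% in the large subunit and 51.8% in the small subunit. The Fhl1 motif GACGCNA was in 7 member windows (5.11%, against 6.19% over all). The motifs can overlap, and a match only describes letters in the window.

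Coding sequences of RPS28 and of the first 150 bases of RPL1 follow, because the ratio of RPS28 changed early while RPL1 had the smallest ratio change. Capitals mark the bases that differ between the copies. The RPS28 pair encodes a protein next to the exit of the messenger RNA channel, and its copies are 88.2% identical, with 24 differing bases of 204. RPL1 encodes the protein of the L1 stalk, and its copies differ at 4 bases of the whole coding sequence, of which 2 lie in the stretch shown. RPS28A is at chrXV:648804-649007, minus strand. RPS28B is at chrXII:673131-673334, plus strand. The RPL1A stretch is at chrXVI:135790-135939, plus strand. The RPL1B stretch is at chrVII:254641-254790, plus strand.
RPS28A: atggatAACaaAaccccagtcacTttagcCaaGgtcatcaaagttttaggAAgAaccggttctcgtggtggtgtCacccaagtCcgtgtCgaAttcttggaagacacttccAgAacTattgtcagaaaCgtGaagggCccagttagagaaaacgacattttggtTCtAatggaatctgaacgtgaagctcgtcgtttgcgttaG
RPS28B: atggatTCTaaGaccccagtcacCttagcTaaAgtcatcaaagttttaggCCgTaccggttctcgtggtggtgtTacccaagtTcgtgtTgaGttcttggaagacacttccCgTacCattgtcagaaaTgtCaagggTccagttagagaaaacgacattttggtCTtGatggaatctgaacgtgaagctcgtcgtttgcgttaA
RPL1A: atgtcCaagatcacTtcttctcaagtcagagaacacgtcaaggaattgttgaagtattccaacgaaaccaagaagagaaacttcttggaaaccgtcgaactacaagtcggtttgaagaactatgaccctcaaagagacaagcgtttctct
RPL1B: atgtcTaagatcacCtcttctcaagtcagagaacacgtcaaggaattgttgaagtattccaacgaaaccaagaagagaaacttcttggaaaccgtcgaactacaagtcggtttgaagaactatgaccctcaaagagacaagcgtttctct

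In early cultures, ribosomal protein transcripts took a smaller share of the RNA with NaHS. Their summed TPM was 5.67%, 5.07% and 6.28% of the total in NaHS libraries, against 7.03%, 7.41% and 8.92% in controls, without overlap. In bulk RNA, a change in the share of cells that express a gene and a change in RNA per cell cannot be told apart. Of 135 members tested (RPL41A and RPL41B are listed at 0 in all 12 libraries), 69 fell, 4 rose and 62 did not pass, where passing means a limma adjusted p below 0.05. Falls made up 51.1% of members, against 28.5% of all genes tested, and rises 2.96%, against 10.1%; 38.5% of all genes passed in either direction. The 3 NaHS values lay below all 3 control values in 75 members (55.6%, against 41.3% of all genes) and above them in 7 (5.19%, against 16.8%). The median log2 change was -0.56 over members and -0.24 over all genes tested. Other scalings shift the median of all genes, to -0.0097 with median-ratio scaling and to 0.067 with upper-quartile scaling, and the members' medians to -0.31 and -0.23. Median-ratio scaling called 41 members lower (30.4%, against 18.3% of all genes) and 9 higher (6.67%, against 17.4%). Upper-quartile scaling called 34 lower (25.2%, against 15.96%) and 10 higher (7.41%, against 20.02%), so that under it more genes rose than fell over the whole table.

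Falls of at least 1 on the log2 scale were found in 31 of 135 members, beside 775 of all 6124 genes tested. They were in 19 of 79 large-subunit and 12 of 56 small-subunit genes tested. Of 79 large-subunit genes tested, 42 fell (53.2%, against 28.5% of all genes), with a median log2 change of -0.60. In limma 0 of them rose, against 10.1% of all genes, and 1 was higher at an unadjusted p below 0.05. Median-ratio and upper-quartile scaling each called 3 large-subunit genes higher (3.80%, against 17.4% and 20.02% of all genes). Upper-quartile scaling called 22 lower (27.8%, against 15.96%). Of 56 small-subunit genes, 27 fell (48.2%, against 28.5% of all genes) and 4 rose (7.14%, against 10.1%), with a median of -0.47. Upper-quartile scaling called 12 small-subunit genes lower (21.4%, against 15.96% of all genes) and 7 higher (12.5%, against 20.02%), with a median of -0.13. Large-subunit genes took 47.9%, 47.4% and 48.8% of the members' summed TPM in NaHS libraries, against 52.7%, 53.5% and 54.0% in controls. The mean log2 level of large minus small subunit was -0.255, -0.307 and -0.293 in NaHS libraries, against -0.200, -0.199 and -0.165 in controls. These groups did not overlap. The difference between the group means was -0.097, and -0.054 when medians over members replaced means.

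**Figure D1:**
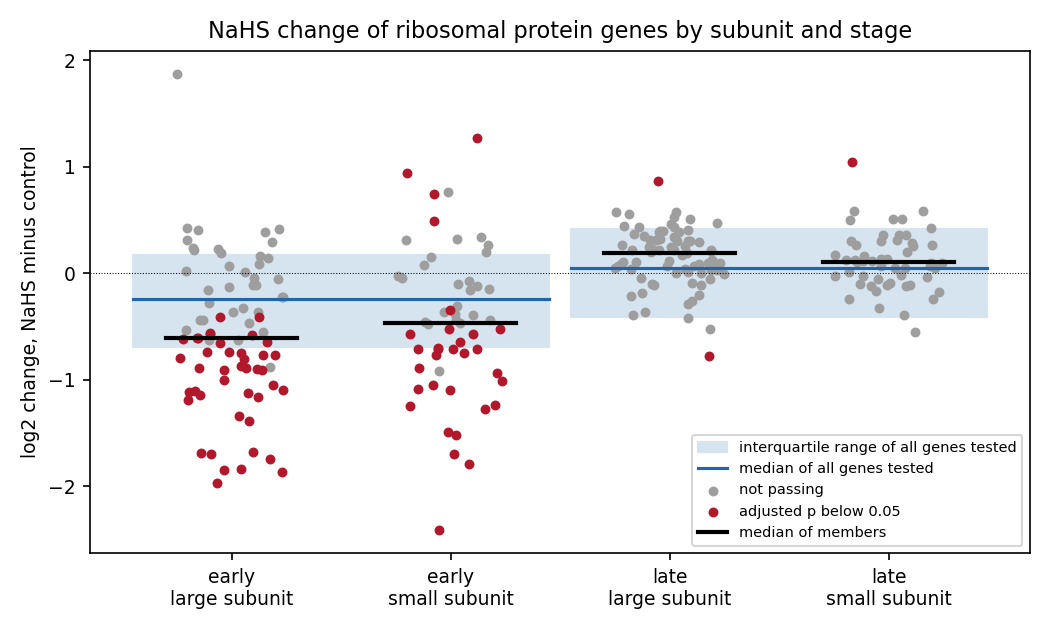
Log2 change, NaHS minus control, of each member by subunit and stage. Red points passed the test, black bars are medians of members, and the blue line and band are the median and the interquartile range of all genes tested; early medians are -0.60 (large) and -0.47 (small), both late medians lie above 0, and RPL39 is left out of the late columns.

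The largest early falls came from both subunits. RPS28B (YLR264W, chromosome XII, 673131 to 673334, plus strand) had 21.7, 21.1 and 41.6 TPM in NaHS libraries, against 113, 175 and 159.7 TPM in controls. Its log2 change was -2.41 (SE 0.30, limma adjusted p = 0.00202), and every NaHS library lay below every control. RPL5, which carries 5S rRNA into the large subunit, had 205, 164 and 155 TPM in NaHS libraries, against 614, 660.3 and 783 TPM in controls. Its change was -1.97 (SE 0.15, limma adjusted p = 0.000523), again with no overlap between the groups. RPL3, whose protein reaches toward the peptidyl transferase centre, had 514, 427 and 374 TPM in NaHS libraries, against 1483, 1590.5 and 1683 TPM in controls. With a change of -1.86 (SE 0.14, limma adjusted p = 0.00048), its NaHS libraries held 0.276 times the control mean.

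RPL4A and RPL4B encode the same kind of protein of the nascent chain's exit tunnel. RPL4B had 202, 148 and 149.7 TPM in NaHS libraries, against 538, 582 and 676 TPM in controls. RPL4A had 515, 446 and 281 TPM in NaHS libraries, against 1316, 1451 and 1552 TPM in controls. Their changes were -1.85 (SE 0.16, limma adjusted p = 0.000645) for RPL4B and -1.84 (SE 0.23, limma adjusted p = 0.00204) for RPL4A, and neither gene's groups overlapped. The coding sequences are 98.9% identical, and the labels do not say how reads were shared between such copies.

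RPS2, a protein at the entry of the messenger RNA channel, had 133, 111 and 176 TPM in NaHS libraries, against 415, 441 and 593 TPM in controls. Its change was -1.79 (SE 0.21, limma adjusted p = 0.00177). RPL9A, a protein near the base of the stalk, had 32.0, 32.3 and 17.9 TPM in NaHS libraries, against 89.0, 84.1 and 91.1 TPM in controls, a change of -1.69 (SE 0.23, limma adjusted p = 0.0028). In both genes every NaHS library lay below every control, with the highest NaHS value of RPS2 at 176 TPM and its lowest control value at 415 TPM.

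All 4 risen members belong to the small subunit, and each has a B or A partner that did not rise. RPS27A (YKL156W, chromosome XI, 158613 to 159212, plus strand), a zinc-finger protein gene, had 1144, 1088 and 1279 TPM in NaHS libraries, against 505, 468 and 475 TPM in controls. Its change was 1.27 (SE 0.10, limma adjusted p = 0.000558), a ratio of group means of 2.42 without overlap. RPS9A, the minor copy of a pair for a protein that acts in decoding accuracy, had 35.6, 28.7 and 32.2 TPM in NaHS libraries, against 12.8, 14.3 and 23.2 TPM in controls, a change of 0.94 (SE 0.23, limma adjusted p = 0.0215). RPS9A was not called without control 1, control 2 or NaHS 1 (limma adjusted p = 0.0718, 0.0793 and 0.0620). RPS25B, for a protein known to act in initiation at internal sites, had 534, 459 and 668 TPM in NaHS libraries, against 324, 322 and 333 TPM in controls, a change of 0.74 (SE 0.15, limma adjusted p = 0.0107). RPS30A, the member with the highest early mean, had 4995, 4394 and 4868 TPM in NaHS libraries, against 2998, 3246 and 3936 TPM in controls, a change of 0.49 (SE 0.13, limma adjusted p = 0.0289). Leaving out control 1, control 2 or NaHS 1 ended the RPS30A call (limma adjusted p = 0.107, 0.104 and 0.0821).

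**Figure D2:**
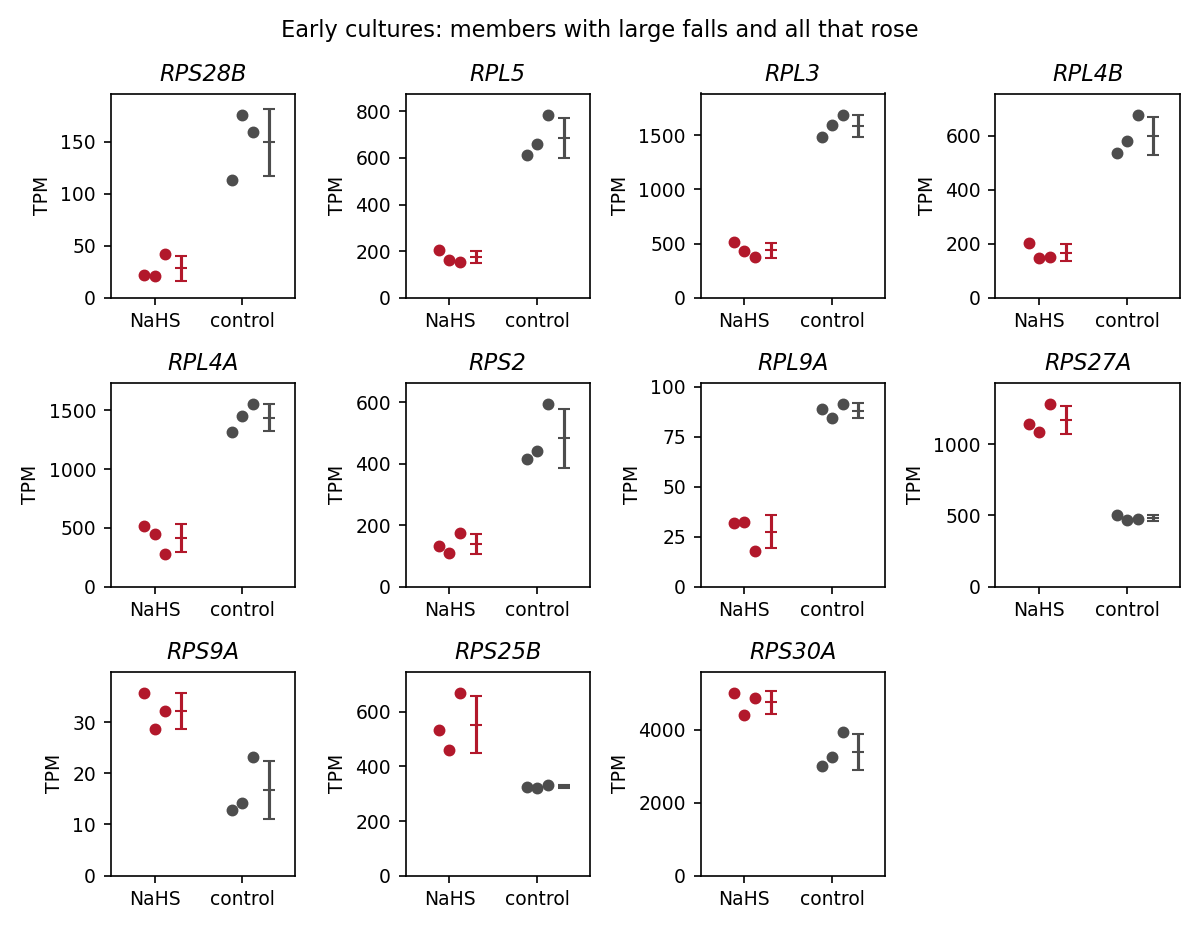
TPM of 11 members in the 3 NaHS (red, left) and 3 control (grey, right) libraries of early cultures, with mean and SD beside each group. The 7 members with large falls lie below their controls in every NaHS library, and the 4 risen members above them.

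The stalk genes encode RPP0, which anchors the stalk on the large subunit, and the acidic proteins of P1 and P2 type, which recruit elongation factors. All 5 fell in early cultures, against 28.5% of all genes tested. RPP0 had 158, 130.4 and 135 TPM in NaHS libraries, against 399, 443 and 525 TPM in controls, a change of -1.68 (SE 0.14, limma adjusted p = 0.000588). RPP2A had 393, 390.4 and 436 TPM in NaHS libraries, against 831, 835 and 964 TPM in controls, a change of -1.11 (SE 0.11, limma adjusted p = 0.000926). RPP1B and RPP2B changed by -0.90 (SE 0.12, limma adjusted p = 0.0026) and -0.87 (SE 0.09, limma adjusted p = 0.00133). RPP1A had 646, 573 and 631 TPM in NaHS libraries, against 758, 831 and 867 TPM in controls, the smallest stalk change at -0.41 (SE 0.10, limma adjusted p = 0.0238). It lost its call with median-ratio scaling (limma adjusted p = 0.326), with upper-quartile scaling (0.708) and without control 1, 2 or 3 or NaHS 2 (0.0534, 0.0972, 0.0925 and 0.0718).

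Of the 19 members without a partner 16 fell (84.2%) and 0 rose (limma, with 0 higher at an unadjusted p below 0.05), and their median was -0.80. Over all genes tested, 28.5% fell and 10.1% rose. The 16 include RPS13 (-1.52), RPS3 (-1.27) and the ubiquitin fusion gene RPS31 (-1.24), and the 3 that did not pass are RPL32, RPL38 and RPL39. These were named after their values were seen. A copies had 29 falls (50.0%) and 3 rises of 58 tested (median -0.59), and B copies 24 falls (41.4%) and 1 rise of 58 (median -0.44).

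Changes were lower in classes of longer members. In coding-length classes of under 400, 400 to under 600 and 600 to under 1200 bases the median changes were -0.14 (n = 50), -0.53 (n = 53) and -0.99 (n = 32), against -0.15, -0.17 and -0.23 for genes that are no member. Fallen members made up 32.0%, 50.9% and 81.2% of the classes (16, 27 and 26 genes), against 18.2%, 26.0% and 30.9% of genes that are no member. Across members Spearman's rho between coding length and log2 change was -0.50 (n = 135), against -0.081 over 2574 other genes of that length range. These correlations run across genes of the same libraries, which are not independent replicates, and carry no p. Members with no intron in the coding sequence had a median of -0.77 (31 of 46 fell, 67.4%), against -0.44 for those with an intron (38 of 89 fell, 42.7%). Over all genes tested, the fallen share was 28.5%. In the longest class these were -1.19 (n = 19) without an intron and -0.74 (n = 13) with one. Of 80 tested members with a Rap1 match, 44 fell (55.0%, median -0.61), and of 55 without one, 25 fell (45.5%, median -0.44), beside the same 28.5%.

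**Figure D3:**
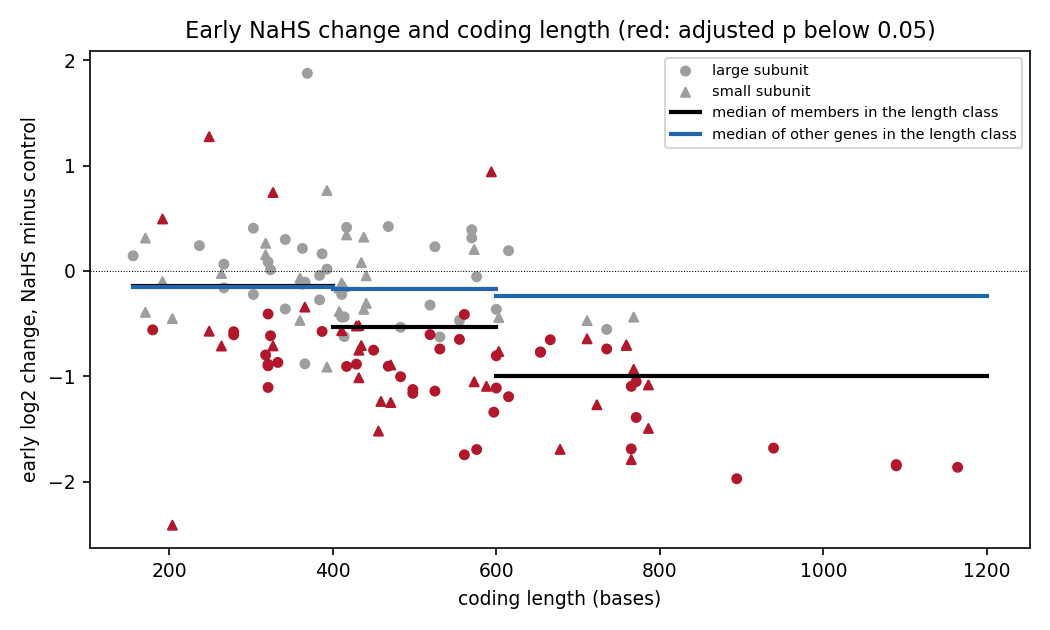
Early log2 change, NaHS minus control, of each member against its coding length, with circles for large and triangles for small subunit and red for members that passed. Black bars are members' medians in 3 length classes (-0.14, -0.53 and -0.99), and blue bars those of other genes (-0.15, -0.17 and -0.23).

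A and B copies of a protein often moved apart in early cultures. Of 58 pairs tested, the A to B ratio changed in 30 (51.7%, against 38.7% of all genes and ratios in that fit), with A lower relative to B in 16 and higher in 14. In 38 pairs (65.5%, against 58.2% of all genes) the NaHS ratios did not overlap the control ratios. Both copies fell in 14 pairs, 4 of them with a changed ratio. In 22 pairs 1 copy fell and the other did not pass, 16 of them with a changed ratio, and 1 fell and the other rose in 3 (RPS9, RPS25 and RPS27). In 18 pairs neither passed, 6 of them with a changed ratio. Scaling nearly cancels in a ratio, and each scaling called 30 pairs. Spearman's rho between A and B changes was 0.10 over the 58 pairs, a description with no test.

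RPL22, a protein of the large subunit that cells can lack, had the largest ratio change. RPL22B had 13.0, 6.19 and 31.9 TPM in NaHS libraries, against 1.54, 2.47 and 6.62 TPM in controls, the lowest mean of any tested early member. RPL22A had 46.9, 17.8 and 56.5 TPM in NaHS libraries, against 66.4, 64.3 and 72.5 TPM in controls. Of their summed level, the A copy held 78.3%, 74.2% and 63.9% in NaHS libraries, against 97.7%, 96.3% and 91.6% in controls, and the log2 ratio changed by -2.76 (SE 0.42, limma adjusted p = 0.00377). Neither copy passed alone, with -0.88 (SE 0.41, limma adjusted p = 0.134) for A and 1.88 (SE 0.64, limma adjusted p = 0.0582) for B. Median-ratio and upper-quartile scaling called RPL22B higher (limma adjusted p = 0.0466 and 0.0457), and so did leaving out NaHS 2 (0.0295). Both windows printed above hold a Rap1 match.

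RPS9B fell, with 75.2, 74.3 and 111 TPM in NaHS libraries, against 171, 167 and 217 TPM in controls, a change of -1.09 (SE 0.20, limma adjusted p = 0.00729). Of the summed level of the pair, RPS9A held 32.1%, 27.8% and 22.4% in NaHS libraries, against 6.96%, 7.89% and 9.67% in controls, and the ratio change was 2.04 (SE 0.21, limma adjusted p = 0.00117). Only the RPS9B window printed above holds a Rap1 match. RPS28A had 1405, 1304 and 1724 TPM in NaHS libraries, against 1979, 1790.5 and 2284 TPM in controls, a change of -0.45 (SE 0.15, limma adjusted p = 0.0554) that did not pass, while RPS28B fell. The A copy's share was 98.5%, 98.4% and 97.6% in NaHS libraries, against 94.6%, 91.1% and 93.5% in controls, a ratio change of 1.96 (SE 0.25, limma adjusted p = 0.00215).

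RPS27B had 815, 770.1 and 784 TPM in NaHS libraries, against 1044, 1180.2 and 1314 TPM in controls, a fall of its own with a change of -0.57 (SE 0.11, limma adjusted p = 0.0104). RPS27A held 58.4%, 58.6% and 62.0% in NaHS libraries, against 32.6%, 28.4% and 26.6% in controls, and the order of the copies turned round; the ratio change was 1.85 (SE 0.14, limma adjusted p = 0.000489). RPS22, a small-subunit protein, moved the other way. RPS22A had 53.2, 63.5 and 119 TPM in NaHS libraries, against 117, 123 and 191 TPM in controls, and RPS22B had 83.4, 72.3 and 140.3 TPM in NaHS libraries, against 54.7, 52.0 and 59.6 TPM in controls. Neither RPS22 copy passed alone, and RPS22A held 39.0%, 46.8% and 46.0% in NaHS libraries, against 68.1%, 70.3% and 76.3% in controls, a ratio change of -1.68 (SE 0.20, limma adjusted p = 0.00177). For RPL9 the A copy fell and the B copy did not pass, at -0.05 (SE 0.11, limma adjusted p = 0.72). The A share was 15.0%, 16.9% and 9.03% in NaHS libraries, against 34.3%, 32.5% and 31.9% in controls, a ratio change of -1.64 (SE 0.26, limma adjusted p = 0.00448).

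**Figure D4:**
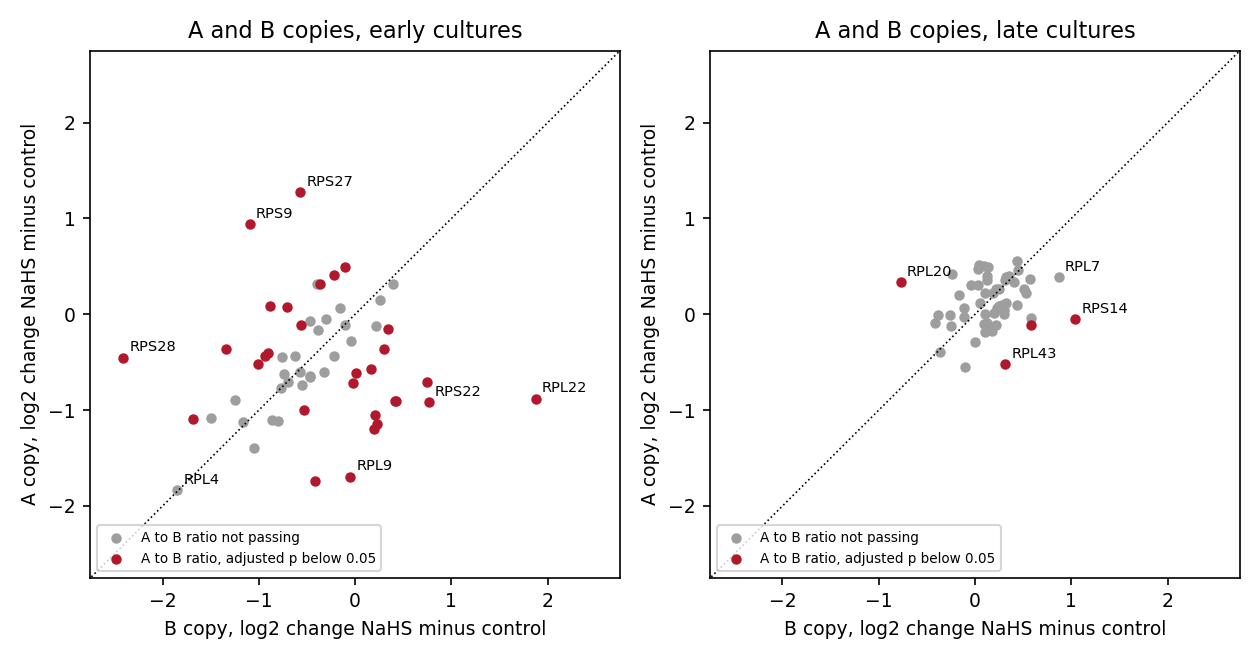
Log2 change, NaHS minus control, of the A copy against that of the B copy, in early (left) and late (right) cultures, with the dotted line where both are equal. Red marks pairs whose A to B ratio passed the test, 30 of 58 early and 4 of 55 late.

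The closest pairs were RPL1, RPL34 and RPS0. RPL1A had 207, 168 and 169.5 TPM in NaHS libraries, against 293, 296 and 339 TPM in controls, and RPL1B had 197, 176 and 188 TPM in NaHS libraries, against 284, 325 and 352 TPM in controls. Both RPL1 copies fell, and the ratio change was 0.001 (SE 0.11, limma adjusted p = 0.996). RPL34, in which neither copy passed, had a ratio change of -0.002 (SE 0.13), and RPS0, in which both fell, had -0.006 (SE 0.13). Among the 8 tested pairs whose coding sequences are at least 97% identical, such as the RPL1 sequences above, 1 ratio passed (RPL42, 0.97), with a median size of change of 0.27. At 92 to 97% identity 16 of 29 passed (median 0.47), and at lower identity 13 of 21 (median 0.63). Identity ran from 69.2% to 99.4% over all 59 pairs, and 21 pairs encode the same protein. The part of reads shared between near-identical copies was not tested.

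Less abundant copies, fixed from the late table so as not to use the early values, had the higher early change in 38 of 55 pairs. Over all 55 pairs the ratio passed in 28, and the copy less abundant late had the higher early change in 23. The order of copies can differ early. RPS18A held 66.0% to 74.3% of its pair in early controls, against 40.2% to 43.9% in late controls.

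Late cultures gave few changes among ribosomal protein genes. Of 132 members tested, 2 rose, 1 fell and 129 did not pass. The shares were 1.52% risen, against 5.28% of all genes tested, and 0.758% fallen, against 9.99%; 15.3% of all genes passed in either direction. Values did not overlap in 24 members that were higher (18.2%, against 18.8%) and 5 that were lower (3.79%, against 19.8%). The median change was 0.13 over members and 0.053 over all genes. Changes had an SD of 0.28 over 131 members and 1.01 over other genes, against 0.68 and 0.75 early. Members took 29.4%, 31.4% and 33.9% of the summed FPKM in NaHS libraries, against 31.5%, 28.2% and 27.3% in controls, with overlap. These sums include RPL39, which is described below. Ribosomal RNA entries took 3.60% of the total of late control 3, and between 0.259% and 0.959% in the other late libraries.

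RPL41A, RPL41B, RPS25A, RPS26A and RPS9A were listed at 0 in all 6 late libraries. RPL39, for a small protein of the exit tunnel, had 4678, 6676 and 6952 FPKM in NaHS libraries, against 0, 7846 and 0 FPKM in controls. No fold is given for RPL39, since a 0 beside a value of that size can be a failed estimate.

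RPS14B had 3501, 3964 and 3470.2 FPKM in NaHS libraries, against 1274, 2456 and 1757 FPKM in controls, a change of 1.04 (SE 0.26, limma adjusted p = 0.0392). It is the copy whose transcript the RPS14 protein is known to bind, holding back its splicing. RPL7B, for a large-subunit protein, had 481, 331 and 497 FPKM in NaHS libraries, against 263, 213 and 229.5 FPKM in controls, a change of 0.87 (SE 0.21, limma adjusted p = 0.0375). RPL20B had 55.7, 42.0 and 52.5 FPKM in NaHS libraries, against 104, 81.1 and 74.7 FPKM in controls, a change of -0.77 (SE 0.20, limma adjusted p = 0.044). Groups did not overlap in any of the 3. RPL20B lost its call whichever of the 6 libraries was left out (limma adjusted p between 0.0677 and 0.128). Among these 6 fits, RPL7B kept its call without control 1 or NaHS 2 and lost it in the other 4, and RPS14B kept its call without control 2 and lost it in the other 5. Upper-quartile scaling gave 5 rises (3.79%, against 7.18% of all genes) and no fall (against 9.26%), and 2 of the 5 were among the 3 calls.

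The large minus small subunit level was -0.274, -0.420 and -0.398 in late NaHS libraries, against -0.360, -0.434 and -0.400 in controls. These overlapped, and the difference of 0.034 turned to -0.057 with medians over members and to -0.011 without NaHS 1. Large-subunit genes took 54.7%, 53.9% and 53.9% of the members' FPKM in NaHS libraries, against 54.1%, 52.8% and 53.1% in controls. 0 of the 5 stalk genes passed in limma (0 at an unadjusted p below 0.05), with changes between -0.19 (RPP1A) and 0.23 (RPP2B). RPS30B had the highest late mean, with 18609, 24035 and 24098 FPKM in NaHS libraries, against 19603, 31693 and 21537 FPKM in controls. RPL15B had the lowest among those tested, with 46.3, 45.1 and 7.03 FPKM in NaHS libraries, against 21.2, 16.2 and 30.0 FPKM in controls. Groups overlapped in both genes.

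In 4 of 55 late pairs the ratio changed (7.27%, against 15.1% of genes and ratios in that fit), and in 24 (43.6%, against 38.6%) it did not overlap. RPL20A held 97.5%, 98.3% and 98.3% in NaHS libraries, against 95.3%, 96.2% and 96.2% in controls, a ratio change of 1.11 (SE 0.22, limma adjusted p = 0.0205). RPS14A held 53.6%, 52.3% and 60.8% in NaHS libraries, against 77.3%, 68.8% and 71.8% in controls, a change of -1.09 (SE 0.23, limma adjusted p = 0.023). RPL43A, for a zinc-finger protein, held 45.5%, 44.2% and 48.6% in NaHS libraries, against 58.1%, 61.9% and 61.1% in controls, a change of -0.83 (SE 0.15, limma adjusted p = 0.0147). The 4 calls became 0 without control 3 or NaHS 2 and 1 without NaHS 1. RPS21 and RPL7 did not overlap either but did not pass, at 0.66 (SE 0.19, limma adjusted p = 0.061) and -0.48 (SE 0.21, limma adjusted p = 0.168). RPL8, RPL19 and RPL4 had the smallest ratio changes, of 0.02 (SE 0.20), 0.02 (SE 0.13) and -0.03 (SE 0.14).

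Ratios passed in both stages in 2 of the 55 pairs tested in both. Of these RPS14, with A lower relative to B in each stage, had -1.09 late and -0.49 early. Of the pairs with the largest early changes, none of the 5 tested late passed there, at 0.27 for RPL22, -0.19 for RPS28, 0.41 for RPS27, 0.38 for RPS22 and -0.06 for RPL9. The difference in ratio change between stages was not tested.

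**Figure D5:**
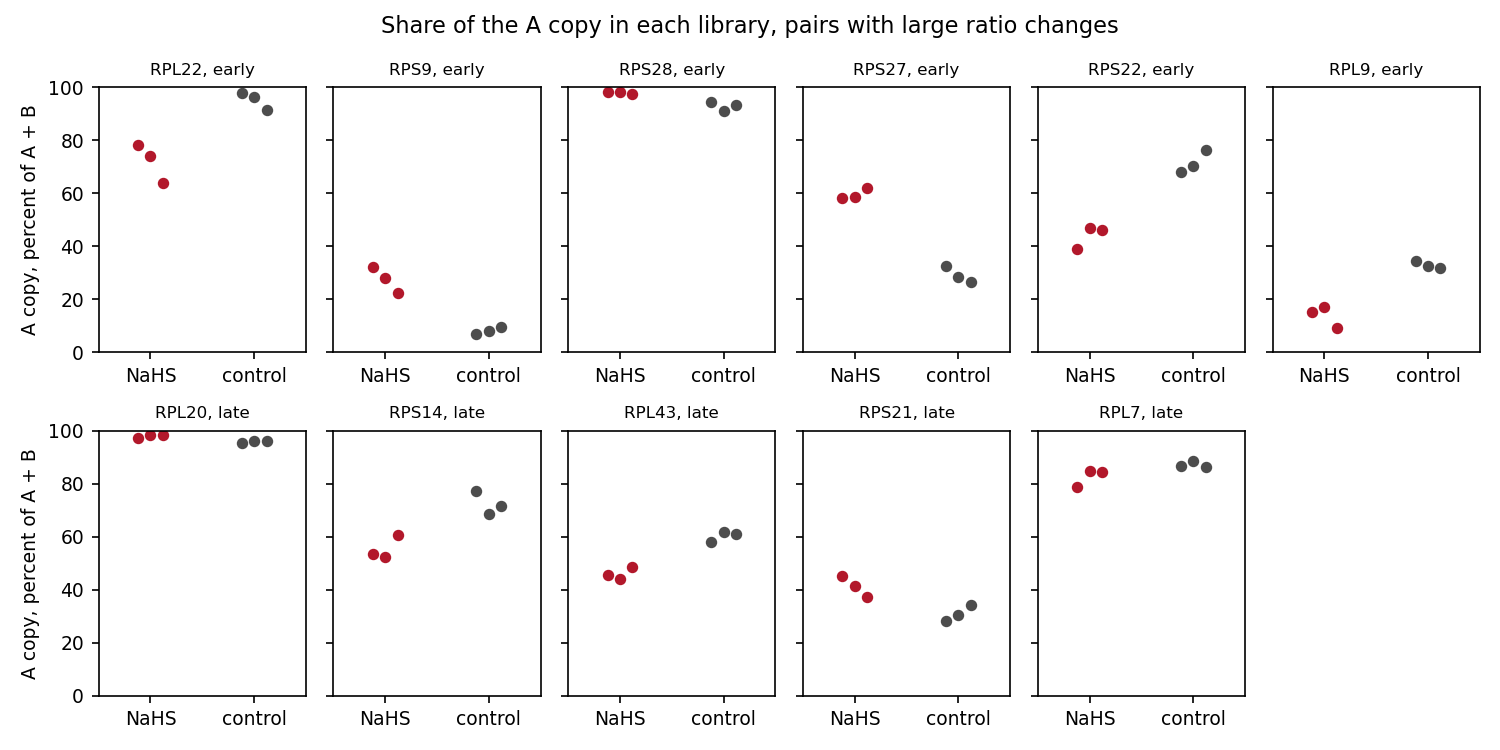
Percent of the summed A and B level held by the A copy in each NaHS (red, left) and control (grey, right) library, for 6 pairs early (top, TPM) and 5 pairs late (bottom, FPKM) with large non-overlapping ratio changes. RPS27A goes to between 58.4% and 62.0% with NaHS, against 26.6% to 32.6% in early controls, and RPS14A to between 52.3% and 60.8%, against 68.8% to 77.3% in late controls.

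The NaHS effect was compared between stages in one limma fit over all 12 libraries, with each table as its own reference. The late effect was higher than the early one in 50 of 132 members (37.9%, against 15.2% of all genes) and lower in 3 (2.27%, against 7.55%). Of the 50, 47 had fallen early. The other 3 are RPS26B, RPS24B and RPL7B. RPS28B changed by 0.28 late and -2.41 early, a difference of 2.70 (SE 0.43, limma adjusted p = 0.00159). RPS2 changed by 0.30 late and -1.79 early, a difference of 2.09 (SE 0.31, limma adjusted p = 0.00105). RPL5, RPL9A and RPL3 differed by 2.04 (SE 0.33, limma adjusted p = 0.00178), 2.03 (SE 0.38, limma adjusted p = 0.00371) and 1.93 (SE 0.25, limma adjusted p = 0.000518). The 3 lower ones were RPS22B at -1.15 (SE 0.35, limma adjusted p = 0.0371), RPS30A at -1.04 (SE 0.29, limma adjusted p = 0.0271) and RPS27A at -0.77 (SE 0.22, limma adjusted p = 0.032). Without early control 1 none of these 3 was called (limma adjusted p = 0.0762, 0.0706 and 0.0622). Upper-quartile scaling called 34 members, 31 higher and 3 lower late. Over all genes it called 505 higher and 524 lower, against 787 and 390 with the values as deposited.

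Genes linked to ribosomal proteins or translation were read from 5 lists. Their counts stand beside the 10.1% of all genes tested that rose and the 28.5% that fell early. Among 16 tested regulators of ribosomal protein genes, 2 rose (12.5%), 4 fell (25%) and 10 did not pass early, shares near those of all genes, with a list median of -0.11 beside -0.24 over all genes. HMO1, an HMG-box protein at these promoters, had 689, 641 and 652 TPM in NaHS libraries, against 432, 448 and 435 TPM in controls, a change of 0.59 (SE 0.09, limma adjusted p = 0.00368). DOT6 had 524, 498 and 599 TPM in NaHS libraries, against 329.7, 296 and 326 TPM in controls, a change of 0.77 (SE 0.11, limma adjusted p = 0.0034). ABF1, a general regulatory factor, had 4.09, 3.58 and 2.67 TPM in NaHS libraries, against 9.43, 10.1 and 8.71 TPM in controls, a change of -1.24 (SE 0.16, limma adjusted p = 0.00239). SCH9, the kinase that TORC1 acts through, fell, with a log2 change of -0.84. CRF1 and YAK1 also fell, with changes of -0.78 and -0.73. Late, 1 of 18 fell (5.56%, against 9.99% of all genes): CRF1, listed at 0 in all 3 NaHS libraries, against 4.30, 15.7 and 10.7 FPKM in controls. As with RPL39, a listed 0 can be a failed estimate, which was not tested for CRF1.

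Of 16 chaperones and import or loading factors, 2 rose (12.5%), 6 fell (37.5%) and 8 did not pass early (median -0.065), and 0 of 16 passed late in limma (3 higher and 0 lower at an unadjusted p below 0.05). YAR1, the chaperone of Rps3, had 49.9, 58.1 and 53.9 TPM in NaHS libraries, against 13.9, 12.2 and 14.6 TPM in controls, a change of 1.92 (SE 0.12, limma adjusted p = 0.000355), and TSR4, which serves Rps2, changed by 0.46 (SE 0.13, limma adjusted p = 0.0315). The ribosome-bound Hsp70 genes SSB1 and SSB2 changed by -1.74 (SE 0.34, limma adjusted p = 0.00966) and -1.67 (SE 0.23, limma adjusted p = 0.00275). Among 13 elongation and termination genes, 2 rose (15.4%), 5 fell (38.5%) and 6 did not pass early (median -0.47). EFT1 and EFT2, near-identical copies for elongation factor eEF2, changed by -1.96 (SE 0.13, limma adjusted p = 0.000367) and -1.73 (SE 0.11, limma adjusted p = 0.000355). ANB1 and TEF2 rose, by 0.93 and 0.79, while TEF1, the near-identical partner of TEF2, fell, with a change of -0.57. ANB1 was low, with 5.19, 8.67 and 9.64 TPM in NaHS libraries, against 3.37, 3.82 and 3.39 TPM in controls. HYP2, of the same list, was listed at 0 in every library. How reads were shared between EFT1 and EFT2 or between TEF1 and TEF2 is not stated in the labels and was not tested. Late, 1 of 13 fell (7.69%, against 9.99% of all genes): CAM1, at -1.05 (SE 0.27, limma adjusted p = 0.0478).

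Ribosome hibernation genes had 2 falls among 5 tested early (40.0%, against 28.5% of all genes, median -0.19), STM1 at -0.93 (SE 0.12, limma adjusted p = 0.00253) and LSO2 at -0.71 (SE 0.22, limma adjusted p = 0.0416). Late, 1 of 5 fell (20%, against 9.99%), LSO1, which is listed at 0 in NaHS 2. Of 7 methyltransferases of ribosomal proteins or, for EFM1, of an elongation factor, 2 fell early (28.6%, the share of all genes being 28.5%, median -0.42). They were RKM3 at -1.24 (SE 0.28, limma adjusted p = 0.0152) and RKM5 at -0.73 (SE 0.20, limma adjusted p = 0.0309). Late, 1 of 6 rose (16.7%, against 5.28%), EFM1, at 0.83 (SE 0.21, limma adjusted p = 0.0392). The other 5, those for ribosomal proteins, did not pass.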

How the data were processed

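RNA from 12 yeast libraries was prepared with TruSeq and sequenced paired-end on a NovaSeq, per the labels. The submitters' processing notes name SeqPrep, Sickle, TopHat, Bowtie 0.12.2 and R64. No label or header names the quantifier, the gene models or the strand setting. The authors deposited TPM for early cultures (a unit read from the values, with column totals between 998109 and 998610) and FPKM for late cultures, per the file headers. Depth is unknown, so no counting interval is given.

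Values became log2(value + 1), which understates the change of low genes. Genes with a mean of at least 1 were fitted with limma 3.58.1 in R 4.3.3 (trend, 2-sided, NaHS minus control, Benjamini-Hochberg over all genes). Entries naming no gene (319 early, 429 late) were left out; they held at most 1.27% of an early and 5.30% of a late total. Ratios of A to B copies joined the gene fit as rows. With 3 against 3 libraries, exact permutation reaches no p below 0.1. The steps were tested on simulated data. Coding sequences and windows came from R64 with Biopython 1.88.

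Members, lists and tests were chosen with earlier results of these data known. Named genes were the 8 largest non-overlapping called changes per direction and stage, 5 per direction for the stage difference, 6 most and 3 least changed pairs, the stalk genes, the highest and lowest means, members at 0 and 2 per direction of each list. A count of up to 5 was also named. Some members that this rule names are not reported here. Length, intron, motif and identity classes were formed after values were seen. The alternatives tried were pseudocounts of 0.1 and 5, other filters and scalings, a minimum change, a replicate block, near-identical pairs left out and each library left out.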

Additional observations from a re-analysis of the deposited data

Results flagged for a closer look

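The NaHS effect differed between late and early cultures, by limma's interaction term over all 12 libraries, in 53 members. The late effect exceeded the early one by 2.70 on the log2 scale for RPS28B, 2.09 for RPS2, 2.04 for RPL5, 2.03 for RPL9A and 1.93 for RPL3. It was below the early one for RPS22B (-1.15), RPS30A (-1.04) and RPS27A (-0.77). Late values are FPKM and early values TPM, and the part of this in the difference was not tested.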

How the results depend on the processing

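Early member calls (73) became 44 with upper-quartile scaling, 32 with a minimum log2 change of 1, and 49 to 89 with 1 library left out. Early pair calls (30) became 13 with that minimum and 21 to 37 with 1 library left out. Late member calls (3) became 5 with upper-quartile scaling, 1 with the minimum, and 0 to 3 with 1 library left out; of the 3 without control 2, 1 was among the original 3. Late pair calls (4) became 2 with the minimum and 0 to 3 with 1 library left out. Stage differences (53) became 34 with upper-quartile scaling and 36 to 58 with 1 library left out. The early difference between large and small subunit (-0.097) was -0.0545 with medians over members, -0.0683 without stalk proteins, and -0.112 to -0.0856 with 1 library left out. The late one (0.034) was -0.0567 with medians and -0.0111 to 0.0621 with 1 library left out. The cause was not tested.

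Replicate numbers did not pair the samples: deviations of same-numbered early libraries correlated at -0.035, -0.011 and -0.028, and late ones at -0.113, 0.086 and 0.041. With a replicate block the calls were 75 early members, 25 early pairs, 0 late members, 1 late pair and 42 stage differences. For the 54 named results, 745 of 858 alternative values kept direction and call, 83 kept direction and lost the call, 6 gained it and 24 untested or uncalled values moved. No called result reversed. Unknown depth leaves the precision of low members such as RPL22B unstated.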
